A study of Danio rerio with 15 samples.

Results

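Crystallins are the bulk proteins of the eye lens, and their transcripts were followed here in the whole-larva RNA of zebrafish offspring after a parental diet carrying arsenic. All genes were taken whose symbol, ignoring case, begins with crya, cryb or cryg, which gave 60 of the 32520 genes in the deposited count table. They comprised 3 alpha crystallins, 7 beta A, 6 beta B, 2 gamma N, 4 gamma S and 3 gamma MX genes, 21 genes of the crygm2d series, 11 other gamma M genes (here the other crygm genes) and 3 crybg genes. The symbols CRYAB, CRYBA2, CRYGN and CRYGS each belong to 2 identifiers, so these are printed with their Ensembl identifier. Values start from the read counts the authors deposited, and levels are given as CPM, the counts of a gene for each M (mega) of a library's total, with totals corrected by TMM factors, which guard against libraries dominated by a few genes.

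Alpha crystallins are small heat shock proteins that keep other lens proteins from clumping, whereas beta and gamma crystallins share a compact fold and are packed into the fibre cells that make the lens clear and refractive. Fish lenses are rich in the methionine-containing gamma M class, many of whose genes lie in tandem. The crybg1 genes encode larger proteins with related domains and are known from tissues other than the lens.

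The parents were adults given a worm diet (blackworms, Lumbriculus variegatus) amounting to 3.5% of body weight over 60 days, after the worms had been kept for 14 days in water with sodium arsenite. Control worms came from water with 0 mg/L arsenite and held less than 0.05 µg/g arsenic by dry weight. Low worms came from 2.5 mg/L, and their arsenic is given as 32.4 µg/g in the sample labels, 33.42 µg/g in the protocol and 32.42 µg/g in the design text. High worms came from 5.0 mg/L and held 72.47 µg/g. Offspring of all 3 groups had wild-type genotype and were raised in arsenic-free medium to 5 days post fertilization, after which RNA of whole larvae was sequenced in 5 libraries per group. The design text also gives a rearing age of 30 days post fertilization, beside the 5 days given for these samples. Adults were bred as 2 females with 1 male, and the labels put the number 20 beside the larvae without saying whether it is per library. Whether each library had its own parents or clutch is not stated there, so the p-values reflect the spread of these 15 libraries, which may be technical.

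Library totals ran from 21.2 to 59.9 M counts. Crystallins took 2.87% of all counts in High 4 (95% Wilson interval 2.86 to 2.88) and 7.43% in Low 3 (7.42 to 7.44), the lowest and highest shares, and such intervals cover counting error only. Genes of the lens fibre other than crystallins were present in every library, with a summed level of 1845 to 2673 CPM in Control, 1429 to 3074 CPM in Low and 1207 to 1989.8 CPM in High. Genes of photoreceptors, from the same organ, summed to 8754 to 13573 CPM, 7303 to 13170.4 CPM and 6186 to 9681 CPM in the same order. A list of 30 exocrine pancreas genes split the libraries within all 3 groups, at a mean log2 CPM over its 26 tested genes of 5.61 to 7.53 in Control 2, Control 4, Low 5, High 2, High 4 and High 5, and of -2.46 to 0.90 in the other 9 libraries. Its summed level ran from 18.2 to 20250.0 CPM in Control, 6.89 to 8005 CPM in Low and 23.4 to 13565 CPM in High, with 3 to 11, 2 to 16 and 1 to 11 of its genes at 0 counts in a library. In RNA from whole larvae, fewer lens cells and less crystallin RNA per lens cell cannot be told apart.

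No crystallin passed the test in any of the 3 comparisons of diet groups. With edgeR's quasi-likelihood test and Benjamini-Hochberg adjustment over 22012 genes, 0 of 60 crystallins had an adjusted p below 0.05 in Low against Control, where 0% of all genes passed. The count was 0 of 60 in High against Control, where 0.522% of all genes passed, and 0 of 60 in High against Low, where 1.71% passed. At an unadjusted p below 0.05 there were 1, 1 and 0 crystallins in these comparisons, against 9.53%, 15.8% and 21.9% of all genes. DESeq2 also called 0 crystallins in each, while calling 0.286%, 4.47% and 7.63% of all genes. By limma voom with sample weights, 0, 0 and 1 crystallins passed, against 6.5%, 1.25% and 21.2% of all genes. No crystallin had CPM values that kept the 5 libraries of a group apart from those of another, which held for 1.31%, 4.41% and 4.31% of all genes.

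What varied was the level between libraries of the same diet, and it varied by subfamily. The SD of log2 CPM within groups had a median of 0.94 over the 60 crystallins and of 0.28 over all genes tested, and 58 of 60 crystallins lay above the latter. The subfamily medians were 0.22 for crybg, 0.39 for beta A, 0.48 for gamma MX, 0.62 for beta B, 0.63 for gamma N, 0.92 for alpha, 1.06 for crygm2d, 1.08 for the other crygm genes and 2.196 for gamma S. Low 5, High 4 and High 5 stood apart for many members, and they are named from here on because of their values. They were the 3 lowest of 15 libraries for 23 of the 36 crystallins outside crygm2d and crybg, and the 3 highest for 8 of the 21 crygm2d genes. The libraries were picked from these same values, and the counts were not made over all genes tested. Whether the pattern is particular to crystallins is therefore not shown. Low 5, High 4 and High 5 all belong to the 6 libraries rich in pancreas transcripts, whose part in these levels was not tested. A fit with the pancreas level as a covariate tested the diet groups only, and 0 crystallins passed in any comparison, as without the covariate. Liver genes were high and photoreceptor genes low in Low 5, High 4 and High 5, but not only there. The mean log2 CPM of 23 tested liver genes was 6.38 in Low 5, 7.55 in High 4 and 7.13 in High 5, and 6.18 to 7.34 in Control 1, Control 2, High 1 and High 2, against -0.61 to 4.23 in the other 8 libraries. That of 27 photoreceptor genes was lowest in High 4 at 5.31, Low 5 at 5.59, High 2 at 5.60 and High 5 at 5.67, against 5.81 to 6.58 in the other 11. Their part in the crystallin levels was not tested.

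**Figure D1:**
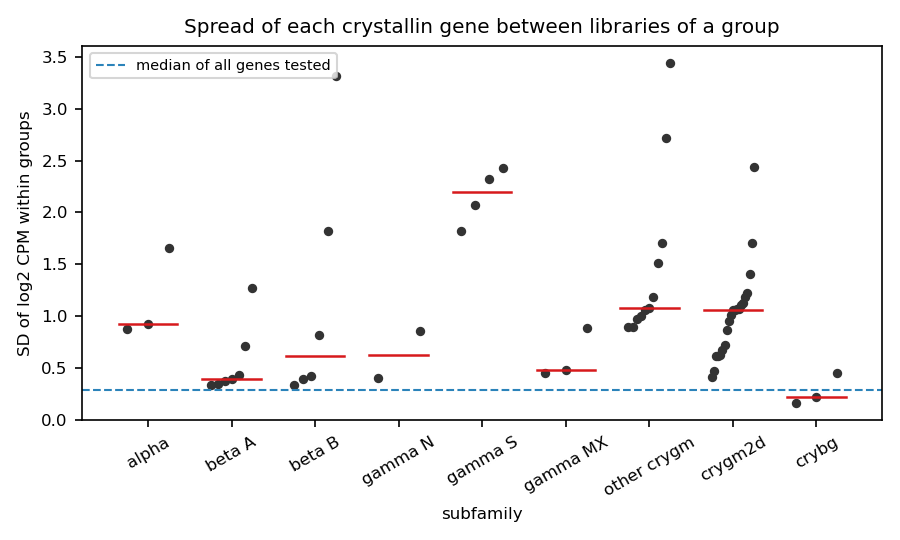
SD of log2 CPM between libraries of the same diet group (vertical axis, pooled over the 3 groups) for each of the 60 crystallin genes, 1 point per gene, by subfamily. Red bars are subfamily medians, from 0.22 in crybg to 2.196 in gamma S, and the dashed line is the median of 0.28 over all genes tested.

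**Figure D2:**
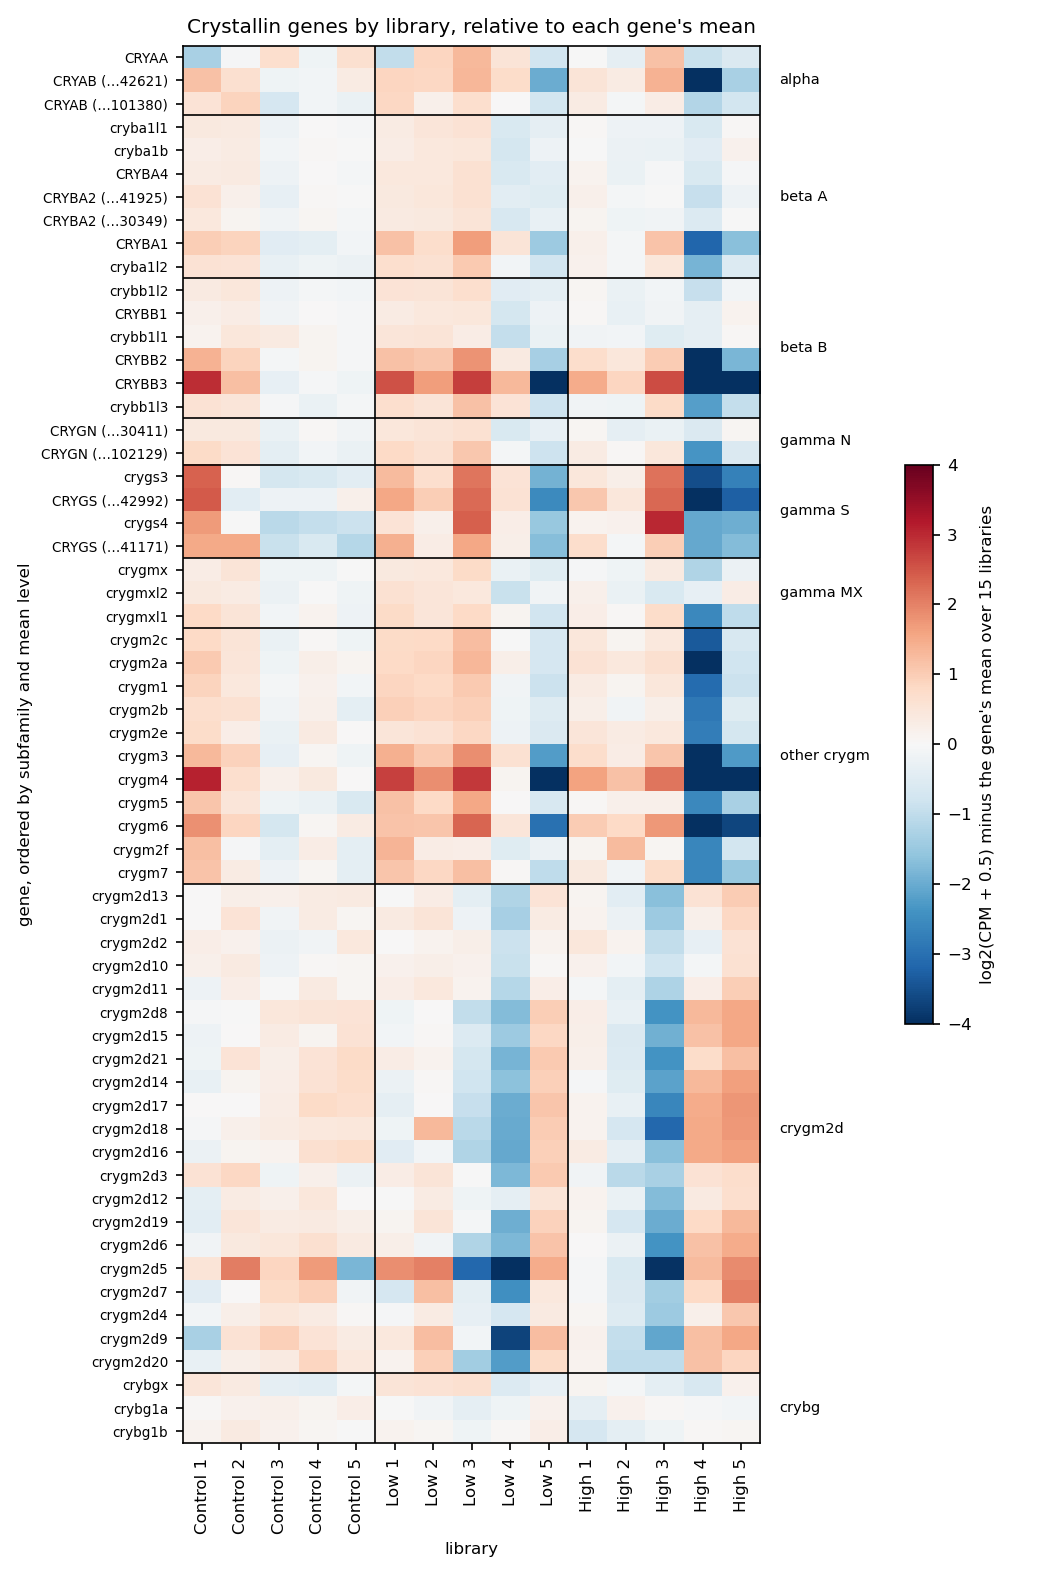
Level of each crystallin gene in each library, as log2(CPM + 0.5) minus the gene's mean over 15 libraries, with colours limited at -4 and 4. Genes are ordered by subfamily and mean level, and shortened identifiers tell apart genes that share a symbol. In Low 5, High 4 and High 5 most crygm2d genes are red while most other gamma M, gamma S and some beta and alpha genes are blue.

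Summed over subfamilies, the libraries of the 3 groups overlapped in every sum. The beta A genes together reached 14211 ± 2572 CPM in Control, 14846 ± 4992 CPM in Low and 11812 ± 2234 CPM in High (n = 5 each, with SD). The beta B genes reached 13901 ± 2662 CPM, 14946 ± 5383 CPM and 11199.9 ± 2204 CPM. For the other crygm genes the sums were 10077 ± 3370.2 CPM, 12031 ± 5437 CPM and 7467 ± 4583 CPM. High was the lowest mean in each of these sums, below Low by less than the SD of Low. For beta B the mean of High also lay below that of Control by more than either group's SD, and below all 5 Control libraries, of which the lowest stood at 11709 CPM, while the highest High library reached 13263 CPM. Without High 4 that mean of High was 12108 CPM, above the lowest Control library. The crybg sums were 277 ± 34.3, 274 ± 41.8 and 236 ± 21.3 CPM in Control, Low and High. There too the mean of High lay below that of Control by more than either SD, and below the lowest Control library at 238 CPM. The highest High library reached 265 CPM for crybg, and with 1 High library left out the mean of High ran up to 242 CPM. For beta A the mean of Control lay above all 5 High libraries, whose highest stood at 14072 CPM, but was 13390 CPM without Control 1. The crygm2d sum was 6215 ± 640.4 CPM in Control, 5396 ± 2170.1 CPM in Low and 6367 ± 3616 CPM in High, with a larger SD in both arsenic groups than in Control. Smaller subfamilies gave 235 ± 52.1, 288 ± 157 and 217 ± 157 CPM for alpha, and 3070 ± 763, 3393 ± 1258 and 2475 ± 578 CPM for gamma N. The gamma MX sums were 3145 ± 655, 3383 ± 1114 and 2636 ± 580 CPM, and those of gamma S 137 ± 159.6, 171 ± 131 and 126 ± 155 CPM. Single libraries set much of the gamma S means, which were 65.5 CPM in Control without Control 1 and 61.6 CPM in High without High 3. These sums are shares of the counts and were not divided by transcript length, so they do not rank the subfamilies by expression.

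**Figure D3:**
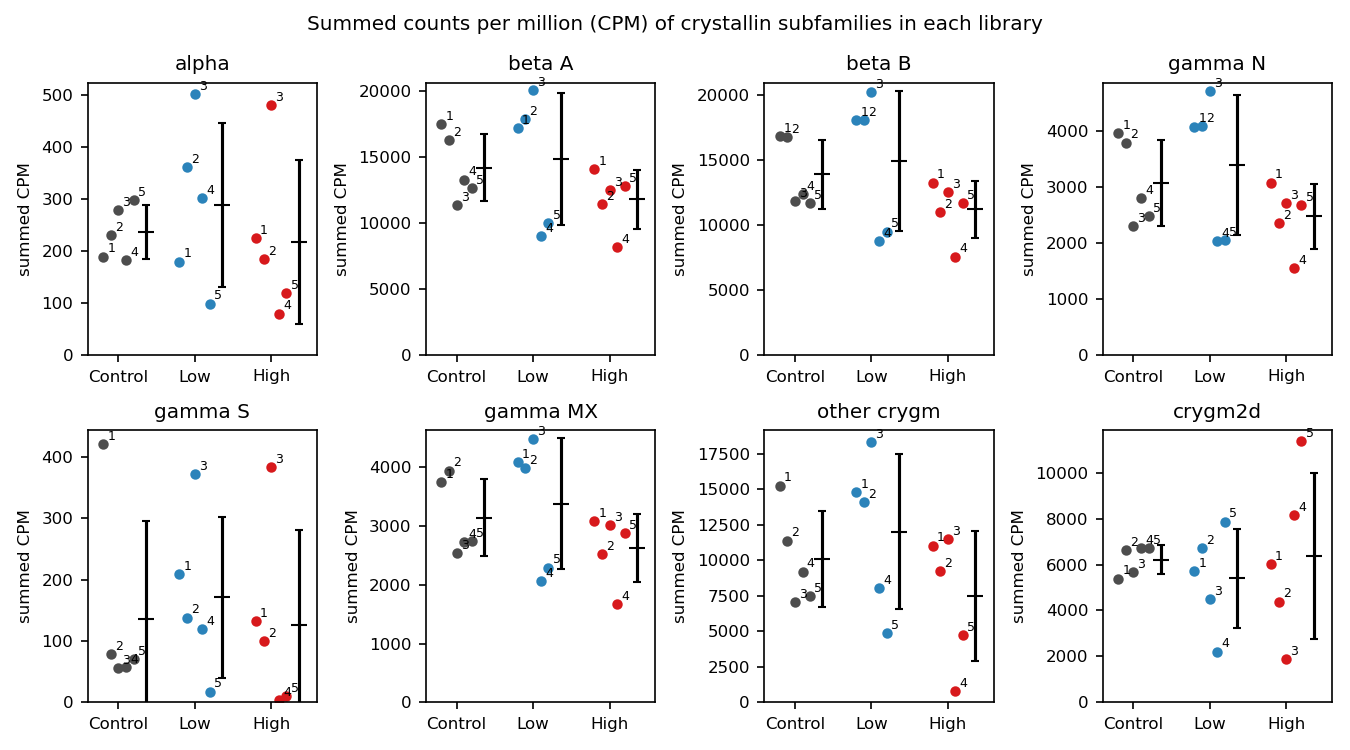
Summed CPM of 8 crystallin subfamilies in each library (points, numbered by replicate) with the group mean and SD (n = 5) beside them, drawn on linear axes that start at 0, which cut off SD bars running below it. The groups overlap in every panel, with High 4 lowest in 7 of 8 panels and High 5 highest for crygm2d.

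The 3 alpha crystallins belong to the small heat shock proteins, and in whole larvae their transcripts need not come from the lens alone. For CRYAA the values were 58.1, 139.8, 229, 129 and 226 CPM in Control 1 to 5, 73.1, 259.8, 356, 206 and 84.4 CPM in Low 1 to 5 and 142, 113, 329, 77.3 and 95.7 CPM in High 1 to 5. CRYAA was lowest in Control 1 and highest in Low 3, and the 3 groups overlapped. Its log2 fold change was 0.33 ± 0.52 (SE) in Low against Control and -0.05 ± 0.52 in High against Control, with edgeR adjusted p of 0.906 and 0.978. The transcript of CRYAB (ENSDARG00000042621) stood at 129, 87.7, 49.7, 51.9 and 71.2 CPM in Control 1 to 5, at 104, 100.0, 143, 94.4 and 13.8 CPM in Low 1 to 5 and at 81.6, 70.3, 149.6, 1.95 and 22.6 CPM in High 1 to 5. This copy was lower in Low 5, High 4 and High 5 than in the other 12 libraries, and its highest library was 76.7 times its lowest. The log2 fold change was 0.23 ± 0.79 in Low against Control and -0.25 ± 0.79 in High against Control, with adjusted p of 0.96 and 0.915 by edgeR. The second copy, CRYAB (ENSDARG00000101380), stayed between 0.232 and 2.55 CPM, with its lowest value in High 4 at 5 counts. The same 3 libraries were lowest for it too, and its log2 fold changes were 0.14 ± 0.53 and -0.47 ± 0.54.

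Beta crystallins divided into a steady and a variable set. In 8 of the 13 beta A and beta B genes the highest library was 2.202 to 3.01 times the lowest, and in the other 5 it was 7.52 to 1186 times. CRYBB1 reached 5102, 5454, 3966, 4465 and 4285 CPM in Control 1 to 5, 5493, 5913, 6045, 2735 and 3799 CPM in Low 1 to 5 and 4575, 3578, 3989.9, 3426 and 4904 CPM in High 1 to 5. CRYBB1 was the steadiest beta B gene, with Low 4 lowest and Low 3 highest and the groups overlapping. The fitted log2 fold change was 0.04 ± 0.19 in Low against Control and -0.18 ± 0.19 in High against Control (edgeR adjusted p of 0.97 and 0.704). Levels of crybb1l2 in Control 1 to 5 were 5902, 6229.5, 4022, 4393 and 4245 CPM, followed by 6709.6, 6626, 7354, 3337 and 3502 CPM in Low 1 to 5 and 4817, 3818, 4263, 2444 and 4252 CPM in High 1 to 5. For crybb1l2, a gene named after its likeness to crybb1, High 4 was lowest and Low 3 highest. It gave the smallest p among beta crystallins in High against Low, with a log2 fold change of -0.49 ± 0.24 and an adjusted p of 0.25 by edgeR. For crybb1l1 the values were 2360.0, 2943, 2766, 2308 and 2084 CPM in Control 1 to 5, 2982, 3088, 2624, 1107 and 1778 CPM in Low 1 to 5 and 1949.9, 1994, 1542, 1668 and 2219.9 CPM in High 1 to 5. The 5 High libraries of crybb1l1 lay at or below 2219.9 CPM and the 5 Control libraries at or above 2084 CPM, so the groups overlapped narrowly. The log2 fold change was -0.41 ± 0.23 in High against Control, with an unadjusted p of 0.0881 and an adjusted p of 0.397 by edgeR.

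The transcript of crybb1l3 stood at 74.2, 69.2, 47.7, 40.8 and 46.4 CPM in Control 1 to 5, at 78.2, 70.2, 111, 73.1 and 27.4 CPM in Low 1 to 5 and at 44.8, 43.6, 84.8, 10.3 and 25.0 CPM in High 1 to 5. Low 3 was highest and High 4 lowest for crybb1l3, and High libraries spanned most of the range. This was the gene called by limma voom with sample weights in High against Low, with a log2 fold change of -1.14 ± 0.36 and an adjusted p of 0.0395, against -0.79 ± 0.46 and an adjusted p of 0.324 by edgeR. cryba1l1 reached 3776, 3695, 2534, 2917 and 2796 CPM in Control 1 to 5, 3663, 4084, 4369, 1896 and 2246 CPM in Low 1 to 5 and 3020.1, 2521, 2533, 1928 and 3038 CPM in High 1 to 5. Values of cryba1l1 were lowest in Low 4 and High 4, and the groups overlapped. The log2 fold change was -0.27 ± 0.22 in High against Control, with an adjusted p of 0.601 by edgeR. Levels of cryba1b in Control 1 to 5 were 3361, 3477, 2552, 2886 and 2758 CPM, followed by 3407, 3717, 3779.5, 1712 and 2394 CPM in Low 1 to 5 and 2743, 2346, 2318, 2011 and 3129 CPM in High 1 to 5. For cryba1b, Low 4 was lowest and Low 3 highest. Its log2 fold change was -0.0025 ± 0.20 in Low against Control and -0.26 ± 0.20 in High against Control, with edgeR adjusted p of 0.998 and 0.566.

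The remaining steady genes were CRYBA4, at 1753 to 4135 CPM over the 15 libraries, and both CRYBA2 genes, at 1009 to 2223 CPM (ENSDARG00000030349) and 1305 to 3814 CPM (ENSDARG00000041925). In the variable set besides crybb1l3, CRYBA1 ran from 37.9 CPM in High 4 to 1116 CPM in Low 3, and cryba1l2 from 83.8 CPM to 630.2 CPM in the same libraries. CRYBB2 and CRYBB3, also variable, are described in full because of their values. For CRYBB2 the values were 2575, 1829, 929.7, 1064 and 956 CPM in Control 1 to 5, 2217, 2064, 3398, 1261 and 386 CPM in Low 1 to 5 and 1580.3, 1355, 1981, 18.4 and 275 CPM in High 1 to 5. CRYBB2, whose human counterpart is mutated in inherited cataract, was lowest in High 4, High 5 and Low 5, and Low 3 was 184 times High 4. The transcript of CRYBB3 stood at 826, 244, 83.3, 103 and 93.8 CPM in Control 1 to 5, at 617, 339.7, 726, 263 and 2.999 CPM in Low 1 to 5 and at 296, 194, 647, 0.696 and 1.88 CPM in High 1 to 5. CRYBB3 had the widest range of any beta gene, at 66 counts in Low 5, 15 in High 4 and 46 in High 5. High 1, High 2 and High 3 stood within the range of the Control libraries. The log2 fold change of CRYBB3 was -0.25 ± 1.43 in High against Control (edgeR adjusted p of 0.958), an SE several times the change itself.

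Among the gamma crystallins outside the M class, gamma S genes varied most. CRYGN (ENSDARG00000030411) reached 2776, 2771, 1771, 2157 and 1907 CPM in Control 1 to 5, 2879, 3021, 3226, 1379.5 and 1659.8 CPM in Low 1 to 5 and 2201, 1642, 1753, 1411 and 2209 CPM in High 1 to 5. Low 4 and High 4 were lowest for it, and Low 3 highest. The log2 fold change of this copy in High against Low was -0.40 ± 0.23, with an adjusted p of 0.317 by edgeR. Levels of CRYGN (ENSDARG00000102129) in Control 1 to 5 were 1186, 1026, 529.7, 648 and 576 CPM, followed by 1201, 1064, 1485, 655 and 393 CPM in Low 1 to 5 and 880.0, 721, 957, 135 and 465 CPM in High 1 to 5. In the second copy High 4 was the lowest library, below High 5 and Low 5, and the log2 fold change in High against Low was -0.60 ± 0.46 (edgeR adjusted p of 0.447). For crygmx the values were 1938, 2235, 1393, 1395 and 1563 CPM in Control 1 to 5, 2035, 2094, 2649.9, 1291 and 1125 CPM in Low 1 to 5 and 1532, 1389, 2028, 684 and 1323 CPM in High 1 to 5. The gamma MX gene crygmx was lowest in High 4 and highest in Low 3, and its log2 fold change in High against Control was -0.29 ± 0.27, with an adjusted p of 0.659 by edgeR. The transcript of crygmxl2 stood at 1627, 1556, 1043, 1216 and 1087 CPM in Control 1 to 5, at 1863, 1739.9, 1634, 658 and 1107 CPM in Low 1 to 5 and at 1418, 1017, 809, 973 and 1502 CPM in High 1 to 5. For crygmxl2 the lowest library was Low 4 and the next was High 3, not the 3 libraries named above. The fitted log2 fold change was -0.19 ± 0.26 in High against Control, with an edgeR adjusted p of 0.781.

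Gamma S crystallin, a structural protein of the lens cortex in mammals, was represented by 4 genes. crygs3 reached 249, 49.4, 29.4, 31.2 and 35.8 CPM in Control 1 to 5, 116, 76.2, 214, 70.9 and 12.7 CPM in Low 1 to 5 and 65.8, 56.0, 219.8, 3.62 and 6.96 CPM in High 1 to 5. Control 1, Low 3 and High 3 were high and High 4, High 5 and Low 5 low, so that Low and High each held both extremes, whereas the other 4 Control libraries lay between 29.4 and 49.4 CPM. Levels of CRYGS (ENSDARG00000042992) in Control 1 to 5 were 161, 21.8, 25.3, 25.1 and 33.6 CPM, followed by 85.7, 58.3, 142, 44.3 and 4.59 CPM in Low 1 to 5 and 62.4, 40.5, 144, 0.325 and 2.58 CPM in High 1 to 5. This gene had the same high and low libraries, with 7 counts in High 4 and a 495-fold range. The log2 fold changes in High against Control were -0.16 ± 1.03 for crygs3 and -0.09 ± 1.16 for this CRYGS, with edgeR adjusted p of 0.961 and 0.98. The other two were sparse, at 0.0410 to 16.4 CPM for crygs4 and 0.123 to 5.55 CPM for CRYGS (ENSDARG00000041171) in the libraries with a count. In High 4 both had 0 counts, which allows up to 0.139 CPM (3 counts).

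All 11 other crygm genes were lowest in High 4, and 10 of them, all but crygm2f, had High 4, High 5 and Low 5 as the 3 lowest libraries. For crygm2a the values were 3085, 2130.2, 1335, 1793 and 1619 CPM in Control 1 to 5, 2638, 2737, 3784, 1765 and 942 CPM in Low 1 to 5 and 2272, 2036, 2338, 42.9 and 876 CPM in High 1 to 5. The range of crygm2a was 88.1-fold, and the 2 highest libraries were Low 3 and Control 1. Its log2 fold change was 0.25 ± 0.68 in Low against Control and -0.40 ± 0.68 in High against Control, with edgeR adjusted p of 0.948 and 0.834. The transcript of crygm2c stood at 2963, 2421, 1408, 1728 and 1487 CPM in Control 1 to 5, at 2876, 2921, 3943, 1689 and 1057 CPM in Low 1 to 5 and at 2333, 1837, 2268, 163 and 1076 CPM in High 1 to 5. Low 3 was again highest for crygm2c, whose log2 fold change in High against Low was -0.70 ± 0.53 (edgeR adjusted p of 0.447). crygm2b reached 2312, 2221, 1300.3, 1664 and 1100.2 CPM in Control 1 to 5, 2801, 2599, 2780.0, 1278 and 1007 CPM in Low 1 to 5 and 1693, 1310.5, 1708, 198 and 1024 CPM in High 1 to 5. For crygm2b, Low 1 and Low 3 were highest. Its log2 fold change in High against Low was -0.82 ± 0.46, with an adjusted p of 0.311 by edgeR. Levels of crygm5 in Control 1 to 5 were 174, 112, 70.8, 67.1 and 52.2 CPM, followed by 180.2, 140.1, 235, 82.0 and 51.5 CPM in Low 1 to 5 and 83.4, 93.6, 93.3, 12.95 and 32.4 CPM in High 1 to 5. Of the genes in this set, crygm5 had the smallest p in High against Low, with a log2 fold change of -1.12 ± 0.55, an unadjusted p of 0.0602 and an adjusted p of 0.247 by edgeR. Its 3 groups overlapped. In the remaining genes of the set, High 4 against the highest library stood at 189.7 and 3306 CPM for crygm1, 183 and 2203 CPM for crygm2e, 18.1 and 1411 CPM for crygm3, 0.557 and 14.3 CPM for crygm7 and 1.44 and 29.8 CPM for crygm2f, the highest being Low 1 for crygm2f and Low 3 for the others.

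For crygm4 the values were 675, 128, 91.4, 105 and 80.1 CPM in Control 1 to 5, 529, 288, 564, 85.4 and 4.41 CPM in Low 1 to 5 and 245, 182, 353, 0.139 and 0.942 CPM in High 1 to 5. Named for its values, crygm4 had the widest spread of the whole family, with a within-group SD of 3.44 on the log2 CPM scale. It stood at 3 counts in High 4 and 23 counts in High 5, while High 1, High 2 and High 3 reached 182 to 353 CPM. A second gene named for its values, crygm6, had 0 counts in High 4 and 7 counts in High 5, and reached 49.8 CPM in Low 3. The third gamma MX gene, crygmxl1, which lies in the same cluster as most crygm genes, ran from 18.0 CPM in High 4 to 193 CPM in Low 3. In the RefSeq annotation of assembly GRCz12tu, used here only for names and gene order, crygm4 lies outside the cluster that holds the other crygm genes. That cluster spans 39 genes, 34 of them crystallins, and in the order of these 34 the 21 crygm2d genes take places 9 to 29, with no other crystallin between them.

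Many genes of the crygm2d series went the other way in the libraries that were low for the rest. High 5 was the highest library for 18 of the 21 genes, and the lowest was High 3 for 14 and Low 4 for 7. The transcript of crygm2d16 stood at 108, 138, 142, 198 and 212 CPM in Control 1 to 5, at 93.7, 119, 55.1, 30.6 and 249 CPM in Low 1 to 5 and at 160.3, 99.5, 40.1, 366 and 402 CPM in High 1 to 5. The 2 highest values of crygm2d16 came from High and its 2 lowest from Low 4 and High 3, so that High held its highest library and its second lowest. The fitted log2 fold change was -0.54 ± 0.61 in Low against Control, 0.42 ± 0.61 in High against Control and 0.96 ± 0.61 in High against Low, with edgeR adjusted p of 0.847, 0.799 and 0.361. Further members are named for their values. crygm2d13 reached 922, 1086, 1052, 1165 and 1178 CPM in Control 1 to 5, 917, 1119, 703, 403 and 1341 CPM in Low 1 to 5 and 996, 687, 289, 1379 and 1872 CPM in High 1 to 5. In crygm2d13, High 5 was 6.47 times High 3, whereas the 5 Control libraries lay between 922 and 1178 CPM. Levels of crygm2d5 in Control 1 to 5 were 44.6, 132, 57.0, 102 and 8.39 CPM, followed by 115, 128, 3.13, 1.47 and 87.8 CPM in Low 1 to 5 and 30.2, 20.4, 1.56, 76.3 and 117 CPM in High 1 to 5. Values of crygm2d5 ranged 89.96-fold, the most of the series, with Low 3, Low 4 and High 3 lowest and Control 5 next. Mean levels over the 15 libraries ran from 19.0 to 1007 CPM in the 21 genes. The least variable was crygm2d10, whose highest library was 2.83 times the lowest. Tandem copies of this kind can share reads, and how such reads were assigned is not given in the sources used here, so the value of a single copy is less certain than the sum.

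Set against each other, the gamma M sets showed how far single libraries departed. Counts of all crygm2d genes divided by those of the other crygm genes gave a ratio of 0.353, 0.580, 0.802, 0.728 and 0.900 in Control 1 to 5. In Low 1 to 5 the ratio was 0.385, 0.474, 0.246, 0.274 and 1.61. In High 1 to 5 it was 0.546, 0.474, 0.165, 10.1 and 2.41. Low 5, High 4 and High 5 were the 3 libraries above 1, and High held both the lowest and the highest ratio. Group means were 0.673 ± 0.213 in Control, 0.599 ± 0.575 in Low and 2.73 ± 4.19 in High (n = 5 each, with SD). The medians were 0.728, 0.385 and 0.546, so High lay above Control by its mean, which High 4 raised, and below it by its median. The groups overlapped, and the ratio was not tested. The crygm2d genes made up 28.9% of crystallin counts in High 4 (95% Wilson interval 28.8 to 29.0), 24.4% in High 5 (24.4 to 24.5) and 21.3% in Low 5 (21.2 to 21.4), and between 4.19% and 15.1% in the other 12. The pancreas-rich libraries Control 2, Control 4 and High 2 had ratios of 0.580, 0.728 and 0.474, within the range of the pancreas-poor libraries.

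**Figure D4:**
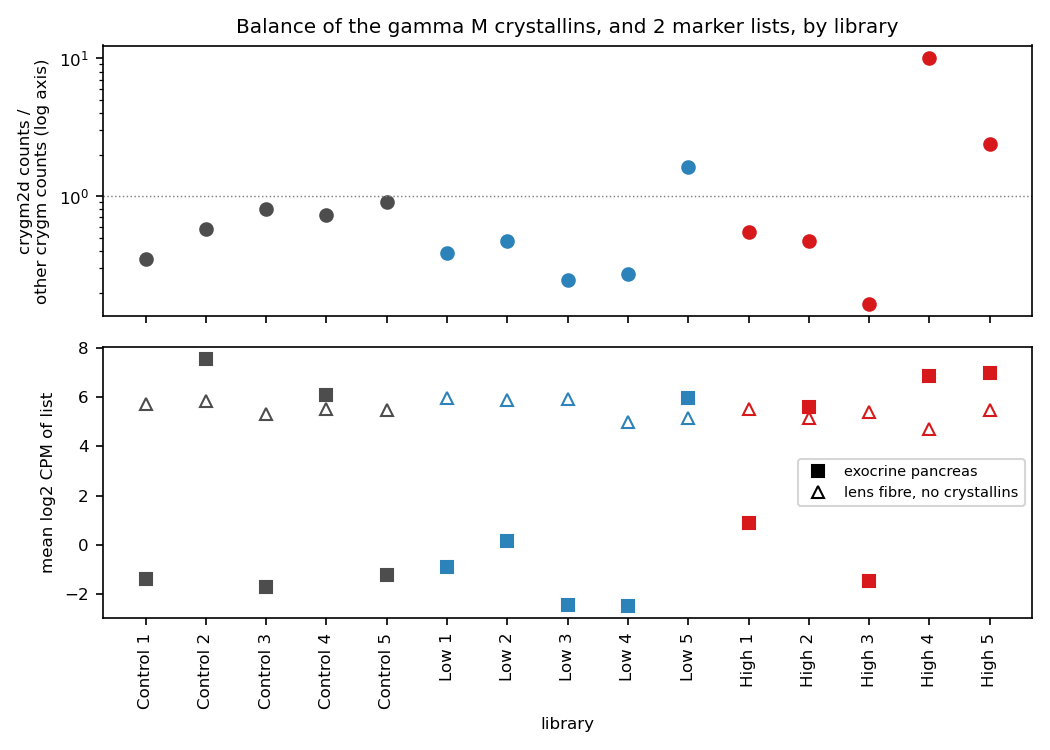
Upper panel: ratio of crygm2d counts to other crygm counts in each library, on a log axis with a dotted line at 1. Lower panel: mean log2 CPM of exocrine pancreas genes (squares) and of lens fibre genes other than crystallins (triangles). Low 5, High 4 and High 5 lie above 1 at 1.61, 10.1 and 2.41 and are rich in pancreas transcripts, as are Control 2, Control 4 and High 2, which lie below 1.

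The fitted changes leaned apart by set without any gene passing. In Low against Control, 20 of the 21 crygm2d genes had a log2 fold change below 0 (median -0.23) and 0 of the 11 other crygm genes did (median 0.32). In High against Control, 11 of the 11 other crygm genes were below 0 (median -0.43) and 11 of the 21 crygm2d genes (median -0.01). In High against Low the medians were -0.70 for the other crygm genes, 11 of 11 below 0, and 0.18 for crygm2d, 3 of 21 below 0. The 3 comparisons share their libraries, and members of a set varied together between libraries of 1 diet, so these counts are not independent. Single libraries carried much of this. Without Low 4, 10 of the 21 crygm2d genes were below 0 in Low against Control (median 0.0068), and their median in High against Low was -0.046. Without High 5 that median was -0.14, with 14 of 21 below 0, and with any 1 library left out it ran up to 0.42 (without High 3). In Low against Control the median of crygm2d was -0.14 without Control 4. The median of crygm2d in High against Control ran from -0.32 without High 5 to 0.19 without High 3. For the other crygm genes the median in High against Control was -0.10 without High 4, -0.18 without Control 1, -0.24 without High 5 and -0.72 without High 3. Their median in Low against Control ran from 0.094 without Low 3 to 0.53 without Control 1, and in High against Low it was -0.40 without High 4. Over all 60 crystallins the median was 0.08 in Low against Control, -0.23 in High against Control and -0.32 in High against Low, beside 0.0020, -0.02 and -0.01 over all genes tested. The share of crystallins below 0 was 40%, 81.7% and 66.7%, against 49.6%, 52.1% and 51.7% of all genes.

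Median log2 fold changes of the alpha, beta A, beta B, gamma N, gamma S and gamma MX genes were 0.23, 0.05, 0.25, 0.19, 0.32 and 0.10 in Low against Control. They were -0.25, -0.27, -0.37, -0.32, -0.13 and -0.29 in High against Control. In High against Low they were -0.48, -0.32, -0.63, -0.50, -0.45 and -0.40. Each of these 6 subfamilies thus had a positive median in the first comparison and negative medians in the other 2 in the main fit. The positive side was not stable between fits, and neither was the negative side for some alpha and gamma S genes. In High against Control without High 4, CRYAA stood at 0.13 and CRYAB (ENSDARG00000042621) at 0.071. Without Control 1, CRYGS (ENSDARG00000042992) stood at 0.92 and crygs3 at 0.95 in that comparison. Over all 60 crystallins, the median in Low against Control was -0.077 with the pancreas covariate and -0.00022 with the replicate number as a block. It was -0.0018 without Control 3 and 0.16 by limma voom with sample weights. Without Low 5, High 4 and High 5, a setting chosen after seeing the data, 0 crystallins passed in any comparison by edgeR, and the median of the other crygm genes in High against Control turned from -0.43 to 0.16. In that setting the crygm2d median became -0.82 in High against Control, with 21 of 21 below 0, and -0.33 in High against Low. With the pancreas level as a covariate, the crygm2d medians were -0.13, -0.40 and -0.23 in the 3 comparisons, and those of the other crygm genes -0.10, -0.48 and -0.38.

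**Figure D5:**
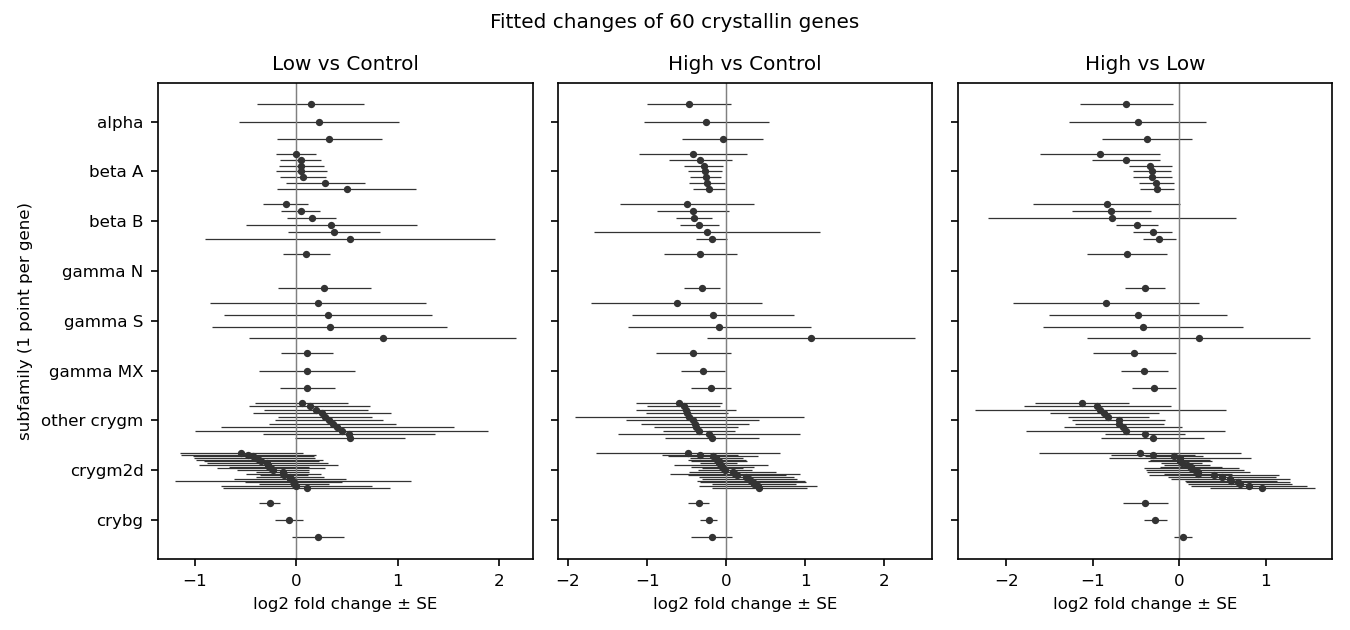
Fitted log2 fold change with its SE (horizontal axis) of each crystallin gene, 1 point per gene, by subfamily, in the 3 comparisons. The points of crygm2d and of the other crygm genes lie mostly on opposite sides of 0 in Low against Control (medians -0.23 and 0.32) and High against Low (0.18 and -0.70), and no gene passed an adjusted p of 0.05.

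Of the 3 crybg genes, crybg1a and crybg1b had the lowest within-group SDs of all 60 crystallins, at 0.16 and 0.22 on the log2 CPM scale. For crybg1a the values were 101, 109.9, 112, 105 and 117 CPM in Control 1 to 5, 95.9, 87.2, 75.7, 86.6 and 109 CPM in Low 1 to 5 and 76.0, 108, 99.7, 93.2 and 90.4 CPM in High 1 to 5. Control libraries of crybg1a lay within 101 and 117 CPM and Low within 75.7 and 109 CPM, overlapping at Low 5. Its log2 fold change was -0.26 ± 0.11 in Low against Control and -0.22 ± 0.11 in High against Control, with unadjusted p of 0.0249 and 0.0531 and adjusted p of 0.473 and 0.323 by edgeR. The transcript of crybg1b stood at 49.8, 58.9, 51.1, 47.7 and 45.2 CPM in Control 1 to 5, at 50.6, 48.3, 40.2, 46.5 and 54.8 CPM in Low 1 to 5 and at 28.4, 34.3, 40.6, 46.7 and 48.3 CPM in High 1 to 5. In crybg1b, High 1, High 2 and High 3 were below all Control libraries while High 4 and High 5 were among them. The log2 fold change was -0.35 ± 0.13 in High against Control, with an unadjusted p of 0.0202 and an adjusted p of 0.219 by edgeR. crybgx reached 158, 146, 87.7, 85.1 and 108 CPM in Control 1 to 5, 162, 169, 179, 77.9 and 89.4 CPM in Low 1 to 5 and 122, 108, 86.6, 72.3 and 127 CPM in High 1 to 5. The third gene, crybgx, spread more, with an SD of 0.45, from High 4 at its lowest to Low 3 at its highest, and gave log2 fold changes of 0.21 ± 0.26 and -0.18 ± 0.26 in Low and in High against Control. The edgeR adjusted p were 0.863 and 0.795.

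Other genes of the lens did not pass either. Of a list of 17 lens fibre genes other than crystallins, 16 were tested and 0 passed in each comparison. Of all genes, 0%, 0.522% and 1.71% passed in Low against Control, High against Control and High against Low. The 16 genes had median log2 fold changes of 0.10, -0.31 and -0.30 in the same order. Below 0 were 6, 16 and 15 of the 16, against 49.6%, 52.1% and 51.7% of all genes. The 3 comparisons share their libraries, and genes of 1 tissue can vary together between libraries, so these counts are not independent. The mean log2 CPM of the 16 genes ran from 4.70 in High 4 to 5.96 in Low 1, and their medians without single libraries are not given. Levels of BFSP2 in Control 1 to 5 were 835, 712, 458, 521 and 440.2 CPM, followed by 894, 787, 973, 373 and 405 CPM in Low 1 to 5 and 560.5, 502, 531, 285 and 427 CPM in High 1 to 5. High 4 was lowest and Low 3 highest for BFSP2, a protein of the beaded filaments of fibre cells, and its log2 fold change in High against Low was -0.57 ± 0.29 (edgeR adjusted p of 0.253). The water channel gene MIP (ENSDARG00000013963) averaged 358 ± 33.9, 335 ± 88.9 and 286 ± 34.8 CPM in Control, Low and High. The second MIP gene (ENSDARG00000037285) averaged 112 ± 31.0, 93.1 ± 28.7 and 68.6 ± 27.7 CPM, with a log2 fold change of -0.70 ± 0.30 in High against Control, an unadjusted p of 0.0319 and an adjusted p of 0.261 by edgeR. The membrane protein genes LIM2 (ENSDARG00000015445) and LIM2 (ENSDARG00000041295) gave -0.21 ± 0.17 and -0.22 ± 0.28 there, with adjusted p of 0.617 and 0.762.

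Of 18 lens regulator genes, 14 were tested and 0 passed, against 0%, 0.522% and 1.71% of all genes in the 3 comparisons. Their median log2 fold changes were -0.04, -0.09 and -0.05. HSF4, a transcription factor of fibre cells, averaged 16.1 ± 1.64, 15.7 ± 4.28 and 13.02 ± 2.63 CPM in Control, Low and High. The transcription factor gene foxe3, expressed in lens epithelium, averaged 1.90 ± 0.271, 1.96 ± 0.598 and 1.67 ± 0.539 CPM. The log2 fold changes in High against Control were -0.31 ± 0.19 for HSF4 and -0.19 ± 0.25 for foxe3, with edgeR adjusted p of 0.453 and 0.772. In pitx3, a transcription factor gene needed for lens development, the means were 19.0 ± 2.28, 18.2 ± 1.67 and 22.3 ± 2.96 CPM, and the log2 fold change in High against Low was 0.29 ± 0.11, with an unadjusted p of 0.0178 and an adjusted p of 0.144 by edgeR. In Low 5, High 4 and High 5, the libraries in which gamma M crystallins departed most, foxe3 stood at 1.41, 1.76 and 2.33 CPM and HSF4 at 14.9, 11.4 and 17.6 CPM, all within the range of the other 12 libraries.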

How the data were processed

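The deposited data are raw read counts for each Ensembl gene and library (15 libraries), per the file headers and the whole-number values. Tools listed in the submitters' processing notes are DESeq2, Trimmomatic, FastQC and MultiQC, with the builds GRCz11 and mm10 (a mouse build). Aligner, counting program and strand setting are not given in the sources used, so reads of overlapping, antisense or near-identical genes cannot be told apart. Per the labels' protocols, RNA with an integrity number above 8 was read from both ends over 100 bp.

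Of the 32520 genes, 29201 had a symbol, 15 lines naming no gene were left out, and totals were 21.2 to 59.9 M counts. Libraries of a group differed at a chi-square per gene of 18.1 or more, so none was merged. After filterByExpr, 22012 genes were tested, all 60 crystallins among them. edgeR 4.0.16 (R 4.3.3) fitted its robust quasi-likelihood test with TMM scaling to all 15 libraries, adjusted by Benjamini-Hochberg per comparison at 0.05. SEs were obtained as the log2 fold change over the root of F, and a prior count of 2 entered log2 CPM. The test was first run on simulated counts. Subfamily sums got no test.

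Members and lists were chosen with earlier results of these data known. Named were the 5 crystallins with the smallest p per comparison, the alpha crystallins, the 2 with the highest mean CPM per subfamily, and 8 lens genes, and others are said to be named for their values. Of 189 names on 10 lists, 176 matched by symbol, symbol without copy letter or RefSeq synonym, and 51 of 60 crystallin symbols matched RefSeq. Sequences were not used here. Alternatives were RLE and upper-quartile factors, scaling without crystallins, other low-count filters, DESeq2 1.42.0, limma 3.58.1 voom with sample weights, fits on 2 groups, the replicate number as a block, the exocrine pancreas level as a covariate, and each library left out.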

Additional observations from a re-analysis of the deposited data

Results flagged for a closer look

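Within each group of 5 libraries, a value was picked out where its gap to the nearest other library was more than 0.71 of the group's range (Dixon's 95% criterion). For independent, normally distributed values chance picks about 1 in 20 groups, and 7 of the 102 examined met the criterion. The values here were untransformed CPM and ratios, and genes of a subfamily vary together with their sum. The chance rate may therefore not hold. The ratio of crygm2d counts to other crygm counts was 1.61 in Low 5, where the other Low libraries lay between 0.246 and 0.474, and 10.1 in High 4, where the other High libraries lay between 0.165 and 2.41. Control 1 stood high for gamma S, with a sum of 422 CPM against 55.8 to 78.2 CPM in the other Control libraries. Among its genes, crygs3 reached 249 CPM there against 29.4 to 49.4 CPM, and CRYGS (ENSDARG00000042992) 161 CPM against 21.8 to 33.6 CPM. In High 3, crygs3 reached 219.8 CPM against 3.62 to 65.8 CPM in the other High libraries, and CRYAA 329 CPM against 77.3 to 142 CPM.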

How the results depend on the processing

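The count of 0 crystallins passing held under every alternative run except limma voom with sample weights in High against Low, with 1 gene, crybb1l3, at a log2 fold change of -1.14. Counts over all genes moved more. In Low against Control, 0 genes passed by edgeR, 63 by DESeq2, 1431 by limma voom with sample weights, 1 with the replicate block, 711 without Low 5, High 4 and High 5 (chosen after seeing the data), and 0 to 507 with 1 library left out (507 without Low 5). In High against Control the count was 115, and 985, 275, 20 and 15 in those settings, 51 in fits on the 2 groups and 19 (without Control 4) to 362 (without High 3) with 1 library left out. In High against Low it was 377, and 1679, 4656, 106 and 1662 in those settings, 118 in fits on the 2 groups, 112 with the pancreas covariate and 39 (without Low 3) to 3778 (without Low 5) with 1 library left out. The causes were not tested. Replicate numbers were not treated as pairs in the main fit. Same-numbered libraries correlated at -0.54 to 0.54, over 0.1 in 9 of 15 pairs. A library correlated best with its own number in 10 of 30 cases. These values do not settle whether the numbers pair the libraries. Median log2 fold changes in Low against Control, High against Control and High against Low were 0.10, -0.76 and -0.87 for the other crygm genes and -0.34, -0.12 and 0.072 for crygm2d under the replicate block, and 0.55, -0.61 and -1.26 and -0.85, -0.32 and 0.45 by limma voom. Summed CPM of the subfamilies moved by less than 1 SD under every other scaling run.

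Of 1794 refitted log2 fold changes of the 23 named crystallins, 77 changed sign, none with a size above 0.48 before. With the pancreas covariate, Low against Control became -0.022 for CRYAA, -0.45 for CRYAB (ENSDARG00000042621), -0.077 for CRYAB (ENSDARG00000101380), -0.67 for CRYGS (ENSDARG00000042992), 0.0053 for cryba1b, -0.077 for crygm2a, -0.013 for crygmx and -0.59 for crygs3. High against Control became 0.0059 for CRYAA and -0.28 for crygm2d16. High against Low became 0.028 for CRYAA, 0.069 for CRYAB (ENSDARG00000042621), 0.51 for CRYGS (ENSDARG00000042992), -0.0048 for crybg1a and 0.28 for crygs3. Without Low 5, High 4 and High 5, High against Control became 0.33 for CRYAA, 0.38 and 0.043 for the CRYAB copies, 0.12 for CRYGN (ENSDARG00000102129), 0.63 for CRYGS (ENSDARG00000042992), 0.066 for crybb1l3, 0.17 for crygm2a, 0.12 for crygm2c, -0.65 for crygm2d16 and 0.53 for crygs3. There, High against Low became 0.0066 for that CRYGS and Low against Control 0.073 for cryba1b. Under the replicate block that CRYGS became -0.11 in Low against Control. By limma voom, cryba1b became 0.049 in Low against Control, and crybgx 0.0092 and crygm2d16 -0.11 in High against Control. In Low against Control cryba1b also became 0.0060 with RLE factors and with DESeq2, 0.019 with upper-quartile factors, 0.0010 with scaling without crystallins, 0.0014 with a filter of 1 CPM in 5 libraries and 0.00041 in the fit on 2 groups.

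With 1 library left out, Low against Control ranged from -0.0035 to 0.54 for CRYAA, -0.080 to 0.47 for CRYAB (ENSDARG00000101380), -0.053 to 0.19 for CRYBB1, -0.026 to 0.25 for CRYGN (ENSDARG00000030411), -0.14 to 1.34 for CRYGS (ENSDARG00000042992), -0.099 to 0.15 for cryba1b, -0.081 to 0.20 for cryba1l1, -0.23 to 0.075 for crybb1l1, -0.059 to 0.24 for crygmx, -0.019 to 0.28 for crygmxl2 and -0.19 to 1.43 for crygs3. High against Control ranged from -0.55 to 0.15 for CRYAA, -0.82 to 0.071 for CRYAB (ENSDARG00000042621), -1.01 to 0.92 for CRYGS (ENSDARG00000042992) and -1.25 to 0.95 for crygs3. High against Low ranged from -1.34 to 0.054 for that CRYGS, -0.018 to 0.11 for crybg1a and -1.56 to 0.029 for crygs3. As to depth, 3 counts correspond to 0.0485 to 0.139 CPM. In High 4, crygm4, crygm6, crygs4 and CRYGS (ENSDARG00000041171) stood at 3 counts or fewer. How far counting error and the spread between libraries each contributed to the SEs was not tested.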
